A study of Homo sapiens with 6 samples.

Results

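The genes described here are the ligands, receptors, receptor substrates and binding proteins of the insulin-like growth factor (IGF) axis. They are the 10 rows of the deposited tables whose symbol is IGF1, IGF2, IGF1R, IGF2R, INSR, IRS1, IRS2, IGFBP2, IGFBP4 or IGFBP5, out of 19923 protein-coding genes. The source is Kelly, a human neuroblastoma cell line with amplified MYCN and a genotype labelled WT, whose poly(A) RNA was sequenced. For the 3 siControl libraries cells were transfected with control siRNA and for the 3 siMETTL3 libraries with siRNA to METTL3, and all were collected after 72 hours. METTL3 is the enzyme that places N6-methyladenosine (m6A) on mRNA, and the comparison asks which transcripts change when it is depleted. This is a single cell line, and the labels do not say whether the replicates were separate cultures, so p-values measure the spread between these libraries, which may be technical.

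IGF1 and IGF2 are secreted ligands that signal through the receptor tyrosine kinase IGF1R, and IGF2 also binds the closely related insulin receptor, INSR. Activated receptors phosphorylate the docking proteins IRS1 and IRS2, which recruit phosphoinositide 3-kinase and so feed AKT and mTOR. IGF2R carries IGF2 to lysosomes without kinase signalling, and the IGF-binding proteins hold the ligands outside the cell until proteases release them. IGF2 is an imprinted fetal growth factor that is expressed in many embryonal tumours, neuroblastoma among them.

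Total counts ranged from 15430000 to 21565013 per library. The targeted gene, METTL3, fell from 54.2 ± 1.80 to 33.04 ± 1.27 CPM (read count scaled to a TMM-normalised library size, mean ± SD, n = 3), to 61.0% of the control level (edgeR quasi-likelihood test, adjusted p = 4.68e-06). TOX4 overlaps 7.9% of the METTL3 span on the opposite strand. Reads were counted without regard to strand, so TOX4 reads can enter the METTL3 count, and their share was not tested. All 9 markers of sympathetic neuroblasts on the marker list were detected, and their summed CPM was 5265 to 5808 in siControl and 7939 to 8411 in siMETTL3. On this list MYCN, the amplified gene of the line, was the largest part (3021 and 4638 CPM on average), and its members differed in direction: ISL1 fell to 44% of its control level (edgeR adjusted p = 6.06e-08), PHOX2A did not pass, and HAND2, GATA2, GATA3, TH, DBH and MYCN rose. The fibroblast markers summed to 82.9 to 96.3 and 85.3 to 92.3 CPM, mostly from PDGFRB, and the immune markers to 2.1 to 3.06 and 1.4 to 2.09 CPM. Of the fibroblast markers, COL1A2, DCN and LUM had at most 8 counts in any library, while COL1A1 had 32 to 117 counts and rose from 2.96 ± 1.27 to 5.26 ± 0.471 CPM (edgeR adjusted p = 0.0200). At most 8 counts were also found for the immune markers PTPRC, CD14 and CD3E. The remaining immune marker, CD68, had 23 to 53 counts and made up most of the immune sum. It was at 2.07 ± 0.378 and 1.59 ± 0.411 CPM and did not pass (edgeR adjusted p = 0.318). The summed CPM of the endothelial markers was 5.64 to 7.0 in siControl and 7.14 to 9.84 in siMETTL3, where VWF rose 1.61-fold (edgeR adjusted p = 0.00592) while PECAM1 and KDR were at 51.6% and 52.3% of their control levels and did not pass. That of the Schwann cell markers, 4 of 5 of which are in the tables, was 5.38 to 5.81 and 6.52 to 8.65. No marker was at 0 in every library, and the part of these genes in the results was not tested. In bulk RNA, fewer cells of a type and less RNA per cell cannot be told apart. Libraries of the siControl group were further apart than those of the siMETTL3 group: the chi-square per degree of freedom was 5.57 to 16.1 between siControl libraries and 3.05 to 3.75 between siMETTL3 libraries, and the pairs with siControl replicate 3 were the farthest apart.

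After METTL3 depletion the ligand IGF2 rose 1.79-fold and the binding protein IGFBP5 rose 1.91-fold, while the receptor substrate IRS2 fell to 71.4% of its control level. The receptors IGF1R, IGF2R and INSR, the substrate IRS1, the ligand IGF1 and the binding proteins IGFBP2 and IGFBP4 did not pass the test. All 10 genes passed the filter on low counts, and 3 of them were called at an adjusted p under 0.05 over all 15311 genes tested, 2 higher and 1 lower. Their CPM values did not overlap between the groups in 6 of 10 genes (IGF1, IGF2, IGF1R, IGF2R and IGFBP5 above, IRS2 below), against 49.9% of all genes tested. Among all genes tested 37.8% were called, 18.6% higher and 19.2% lower. The median log2 fold change of the 10 genes was 0.11, against -0.0021 over all genes tested. At 1.5-fold or more, 2 of the 10 were called, against 9.72% of all genes tested. The count of called genes in the axis rested partly on single libraries: it was 6 without siControl replicate 1, when IGF1R, IGFBP2 and IGFBP4 were called too and 41.3% of all genes were called. Without siMETTL3 replicate 2 it was 4, with IGFBP2, against 28.1% of all genes. In the other 4 fits that left out a library it was 3, against 27.2% to 40.5% of all genes, so whether the axis lies above or below the share of all genes depends on the libraries used. IGF2, IGFBP5 and IRS2 were called in every fit that was run.

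**Figure D1:**
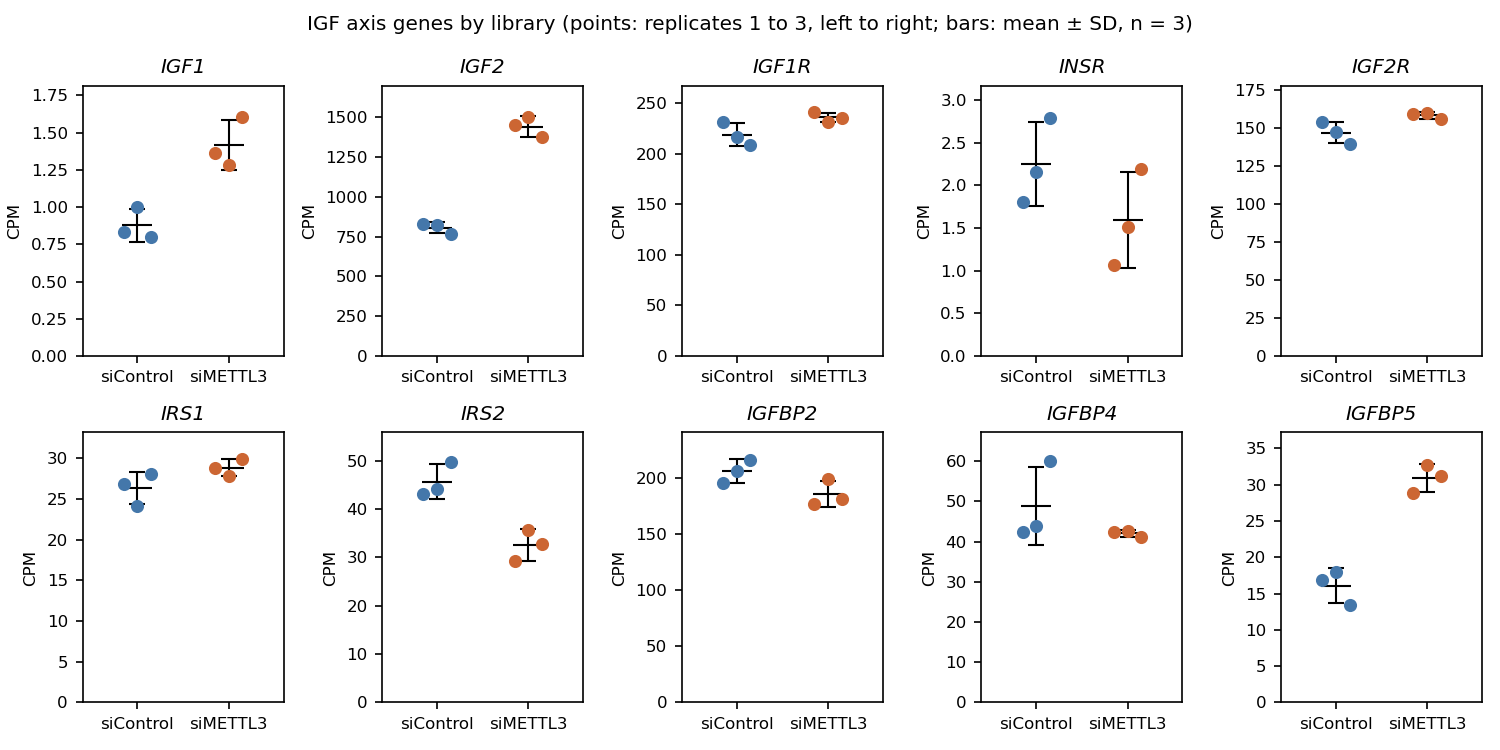
Normalised expression (CPM, vertical axis from 0) of the 10 IGF axis genes in each library, with siControl in blue and siMETTL3 in orange. Points are replicates 1 to 3 from left to right and bars are mean ± SD (n = 3). The siMETTL3 points of IGF2 and IGFBP5 lie well above those of siControl, those of IRS2 lie below, and the high siControl point of IGFBP4 is replicate 3.

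The mark that METTL3 writes is placed in a short sequence context of which GGACT is a frequent form. The tables hold no measurement of m6A, so the matches below are a description of the transcripts and not sites of methylation. GGACT was counted on the sense strand of the canonical transcript of each gene (GENCODE release 44, GRCh38). The 3 called genes and IGFBP4, which has the densest matches and the match nearest to a stop codon among the 10, are shown by their match nearest to the end of the stop codon, with 10 bases on either side, written 5′ to 3′ as DNA with the motif in capitals:
IGF2 (chr11:2132449-2132473, minus strand, 3′ UTR): cttctcccttGGACTttgagtcaaa
IGFBP5 (chr2:216676779-216676803, minus strand, coding sequence): acgttgacggGGACTttcagtgcca
IRS2 (chr13:109756151-109756175, minus strand, 3′ UTR): aaacatctgtGGACTctgttagatg
IGFBP4 (chr17:40456592-40456616, plus strand, 3′ UTR): agcaggccagGGACTcagcgtcccc

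The genes that rose did not share a density of this motif. IGF2 held 3 matches in 5580 bases, or 0.538 per kb, which lies above 23.5% of the 14591 tested genes with a canonical transcript. IGFBP5 held 9 in 6239 bases, or 1.44 per kb, above 77.4% of them. IRS2, which fell, held 7 in 8156 bases, or 0.858 per kb, close to the median of 0.929 per kb over all those transcripts. IGFBP4 held 4 in 2205 bases, or 1.81 per kb, above 88.0%. The remaining 6 genes lay between 0.55 per kb in IGF1 and 0.925 per kb in IGF2R.

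Of the ligands, IGF2 (chromosome 11, 2129112 to 2141238, minus strand) had the smallest adjusted p of the 10 genes. Its expression was 830, 821 and 765 CPM in siControl replicates 1 to 3 and 1448, 1501 and 1373 CPM in siMETTL3 replicates 1 to 3. Every siMETTL3 library stood far above every siControl library, and the spread within each group was small beside the gap. The mean rose from 805 ± 35.3 to 1440.4 ± 64.4 CPM (SD, n = 3), or by 0.84 ± 0.060 on the log2 scale (SE, edgeR, adjusted p = 2.97e-07). Leaving out single libraries moved this only within 0.80 to 0.87.

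The IGF2 count belongs to a locus rather than to a single transcript. Reads that fall on several genes were counted for each of them, and the whole IGF2 span lies inside AC132217.2, a longer gene on the same strand, while 71.7% of it lies inside INS-IGF2, a readthrough gene that starts at insulin. The AC132217.2 counts exceeded those of IGF2 by 2.4% to 3.10% in siControl and 1.6% to 1.83% in siMETTL3, so nearly all reads of that longer span fell on IGF2 itself. INS, which encodes insulin, had 0 counts in all 6 libraries, which allows at most 0.138 to 0.199 CPM at a limit of 3 counts. INS-IGF2 held between 24.0% and 28.2% as many counts as IGF2, and its count rose from 217 ± 17.3 to 368 ± 34.2 CPM (0.76 on the log2 scale, edgeR adjusted p = 7.97e-06). Of the INS-IGF2 span, 90.2% lies inside AC132217.2, where reads outside IGF2 came to at most 3.10% of the IGF2 count. Most INS-IGF2 counts in that part are therefore IGF2 reads counted again. The rise of INS-IGF2 cannot be read as separate from that of IGF2. With the INS-IGF2 counts taken off, IGF2 still held 609, 590 and 567 CPM in siControl and 1071, 1104 and 1043 CPM in siMETTL3. That remainder, a lower bound of the reads counted for IGF2 and not for INS-IGF2, rose by a log2 fold change of 0.87 (edgeR, adjusted p = 1.19e-07), an alternative chosen after seeing the data.

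IGF1 (chromosome 12, 102395874 to 102481744, minus strand), the growth hormone-dependent ligand, was near the limit of detection. It had 18, 20 and 12 counts in siControl and 28, 28 and 33 in siMETTL3. The siMETTL3 libraries were all higher, at 1.42 ± 0.168 against 0.877 ± 0.109 CPM, but the difference did not pass the test (log2 fold change 0.68, 95% interval -0.00013 to 1.36, edgeR adjusted p = 0.108). Among counts of 1 to 10 in a library, 75.4% to 82.2% were even, against 49.4% to 50.5% of counts over 1000. Whether both mates of a read pair were counted singly is not given in the sources used here and was not tested. If they were, the counts of IGF1 and INSR and the limit of 3 counts stand for fewer fragments than counts.

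None of the receptors passed the test. IGF1R (chromosome 15, 98648539 to 98964530, plus strand), the kinase through which both ligands signal, was at 231, 217 and 209 CPM in siControl and at 241, 232 and 235 CPM in siMETTL3. The siMETTL3 values were all slightly higher, but the margin between the groups was smaller than the spread within siControl. Its log2 fold change was 0.11 with a 95% interval of -0.01 to 0.23 (edgeR, adjusted p = 0.155). It was called without siControl replicate 1 (log2 fold change 0.15, adjusted p = 0.0443). IGF2R (chromosome 6, 159969099 to 160113507, plus strand), which clears IGF2, was at 154, 147 and 140 CPM in siControl and 159, 160 and 156 CPM in siMETTL3, with a log2 fold change of 0.11 (95% interval -0.01 to 0.23, edgeR adjusted p = 0.15).

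INSR (chromosome 19, 7112255 to 7294414, minus strand), the insulin receptor, was barely detected. It had 39, 43 and 42 counts in siControl and 22, 33 and 45 counts in siMETTL3, over a span of 182 kb. The groups overlapped, since siMETTL3 replicate 3 lay above siControl replicate 1 in CPM. The log2 fold change was -0.48 with a wide 95% interval of -1.14 to 0.18 (edgeR, adjusted p = 0.242), so that a difference of either sign was not resolved at this depth. The log2 ratio of IGF1R to INSR within a library was 7.0, 6.66 and 6.22 in siControl and 7.82, 7.26 and 6.75 in siMETTL3. The groups overlapped in this ratio too, and its mean differed by 0.65 (exact permutation test over samples, two-sided, p = 0.20, and 0.20 after Benjamini-Hochberg adjustment over the 2 ratios tested; the smallest p that 3 against 3 allows is 0.10).

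Of the receptor substrates, IRS2 was called and IRS1 was not. IRS2 (chromosome 13, 109752695 to 109786583, minus strand), a docking protein that links both receptors to phosphoinositide 3-kinase, was at 43.1, 44.2 and 49.7 CPM in siControl and at 29.2, 35.7 and 32.7 CPM in siMETTL3. All siMETTL3 libraries lay below all siControl libraries. The mean fell from 45.7 ± 3.54 to 32.5 ± 3.24 CPM (SD, n = 3), a log2 fold change of -0.49 ± 0.088 (SE, edgeR, adjusted p = 0.000736). IRS1 (chromosome 2, 226731317 to 226799759, minus strand), the related docking protein, was at 26.8, 24.2 and 28.1 CPM in siControl and 28.8, 27.8 and 29.8 CPM in siMETTL3. Its groups overlapped, and its log2 fold change was 0.13 (95% interval -0.05 to 0.31, edgeR adjusted p = 0.249). The log2 ratio of IRS2 to IRS1, which does not depend on how libraries are scaled, was 0.69, 0.87 and 0.82 in siControl and 0.02, 0.36 and 0.13 in siMETTL3. No siMETTL3 library reached the lowest siControl ratio. The mean ratio differed by -0.62 on the log2 scale (exact permutation test over samples, two-sided, p = 0.10, the smallest p that the design allows, and 0.20 after Benjamini-Hochberg adjustment over the 2 ratios).

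Among the binding proteins, IGFBP5 (chromosome 2, 216672105 to 216695549, minus strand), which binds IGFs and attaches to extracellular matrix, had the largest log2 fold change of the 10 genes. Its expression was 16.9, 18.0 and 13.4 CPM in siControl and 28.9, 32.7 and 31.1 CPM in siMETTL3. The lowest siMETTL3 library was well above the highest siControl library. The mean rose from 16.1 ± 2.39 to 30.9 ± 1.93 CPM (SD, n = 3), or by 0.93 ± 0.11 on the log2 scale (SE, edgeR, adjusted p = 1.97e-05). Leaving out single libraries gave 0.82 to 1.02.

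IGFBP2 (chromosome 2, 216632828 to 216664436, plus strand), a binding protein abundant in fetal and neural tissue, is the neighbour of IGFBP5, with the 3′ ends of both genes facing each other across 7668 bases. It was at 196, 206 and 216 CPM in siControl and 177, 199 and 181 CPM in siMETTL3. The groups overlapped through siMETTL3 replicate 2, and the log2 fold change of -0.15 (95% interval -0.29 to -0.02) did not pass after adjustment over all genes (edgeR, adjusted p = 0.0724). It passed narrowly without siControl replicate 1 (log2 fold change -0.19, adjusted p = 0.0212), without siMETTL3 replicate 2 (-0.21, adjusted p = 0.0455) and with the replicate number as a block (-0.15, adjusted p = 0.0498). The ratio of IGFBP5 to IGFBP2 in CPM was 0.0865, 0.0871 and 0.0619 in siControl and 0.163, 0.164 and 0.172 in siMETTL3, so these neighbours did not keep their proportion.

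IGFBP4 (chromosome 17, 40443450 to 40457725, plus strand), a binding protein that the protease PAPPA cleaves, was at 42.5, 44 and 60.0 CPM in siControl and at 42.5, 42.7 and 41.1 CPM in siMETTL3. Its mean difference came from a single library, siControl replicate 3. The log2 fold change was -0.21 (edgeR, adjusted p = 0.174) with all libraries, -0.04 without siControl replicate 3 (adjusted p = 0.712), and -0.30 without siControl replicate 1 (adjusted p = 0.0299).

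**Figure D2:**
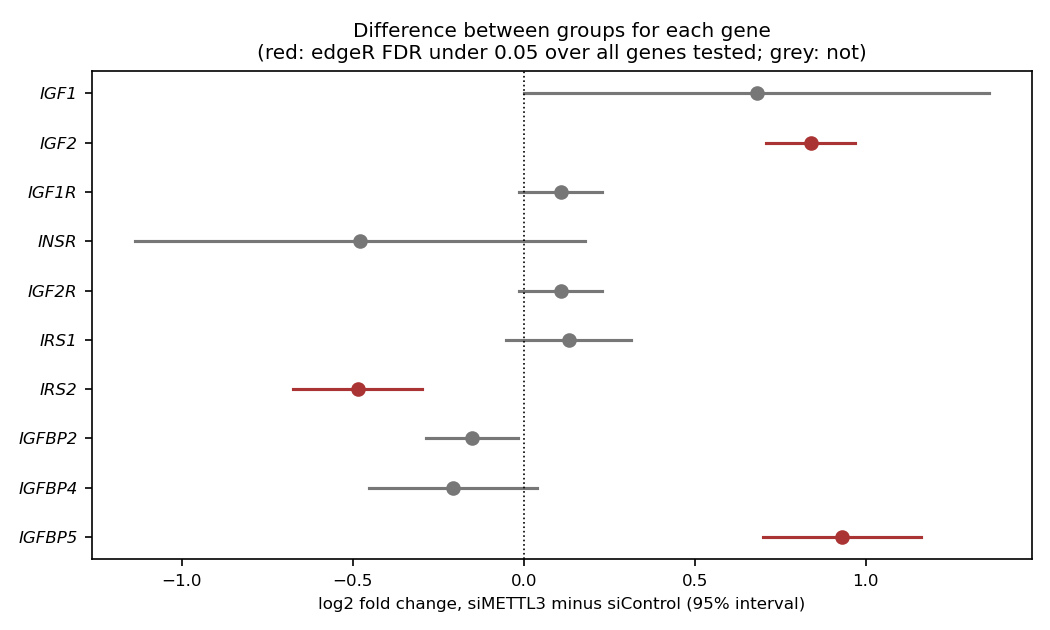
Log2 fold change of each gene, siMETTL3 minus siControl (horizontal axis), with its 95% interval from edgeR. Red genes had an adjusted p under 0.05 over all genes tested: IGF2 at 0.84, IGFBP5 at 0.93 and IRS2 at -0.49; the intervals of IGF1 and INSR, the genes with the fewest counts, are the widest.

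**Figure D3:**
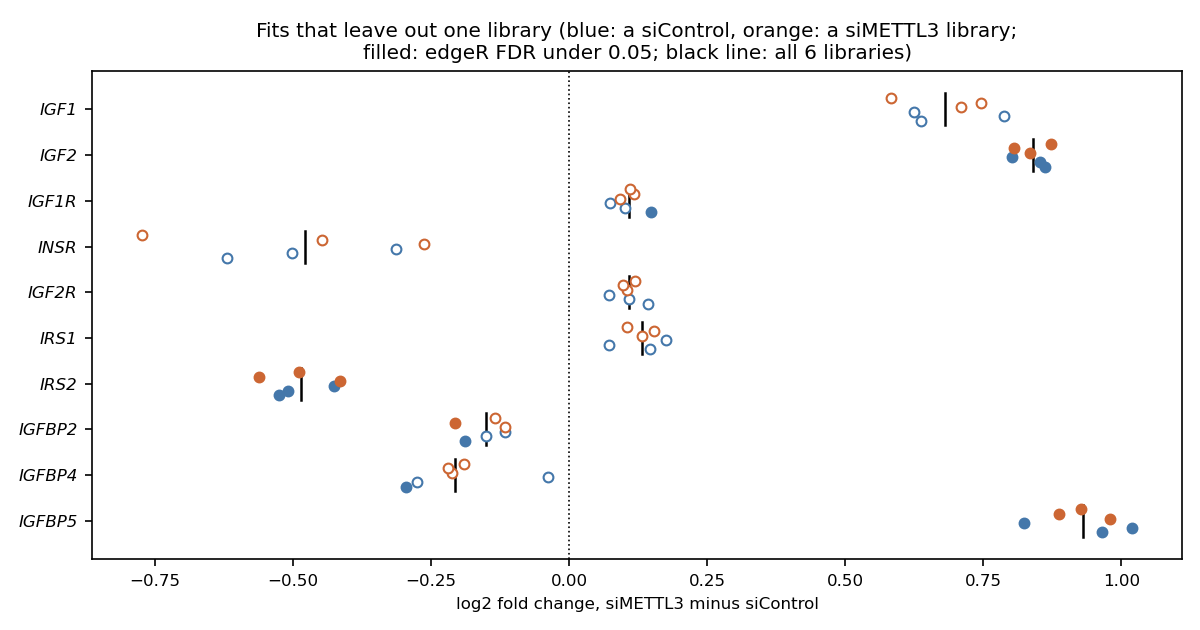
Log2 fold change of each gene (horizontal axis) in the 6 fits that each left out a library, with filled points for an adjusted p under 0.05 and a black line at the value with all 6 libraries. Points are blue where a siControl and orange where a siMETTL3 library was left out. The points of IGF2, IRS2 and IGFBP5 are all filled, and the blue point of IGFBP4 near 0 is the fit without siControl replicate 3.

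Levels of different genes were compared per kb of canonical transcript. In siControl, IGFBP2 (146 ± 7.34 CPM per kb) and IGF2 (144 ± 6.32) were at the top and overlapped each other. IGFBP4 followed at 22.1 ± 4.40, IGF1R at 17.9 ± 0.935, IGF2R at 10.4 ± 0.497 and IRS2 at 5.60 ± 0.434 CPM per kb, and none of these neighbours overlapped. IRS1 (2.70 ± 0.204 CPM per kb) and IGFBP5 (2.58 ± 0.383) could not be separated. INSR (0.238 ± 0.0525 CPM per kb) and IGF1 (0.121 ± 0.0149) were far below the rest. In siMETTL3 the order changed in several places: IGF2 (258 ± 11.5 CPM per kb) no longer overlapped IGFBP2 (131 ± 8.31), IGF1R (19.3 ± 0.381) overlapped IGFBP4 (19.1 ± 0.376), IGFBP5 (4.95 ± 0.309) lay above IRS2 (3.99 ± 0.398) and IRS1 (2.95 ± 0.105), and IGF1 (0.195 ± 0.0231) overlapped INSR (0.168 ± 0.0597). Counts cover introns as well as exons, so values per kb of transcript can include intron reads: the transcript makes up 3.87% of the span of IGF1R but 46.0% of that of IGF2. Per kb of the whole span, IGF2 stood at 66.4 ± 2.91 CPM in siControl, IGFBP2 at 6.52 ± 0.328 and IGF1R at 0.693 ± 0.0362. INSR and IGF1 were lowest on both scales.

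**Figure D4:**
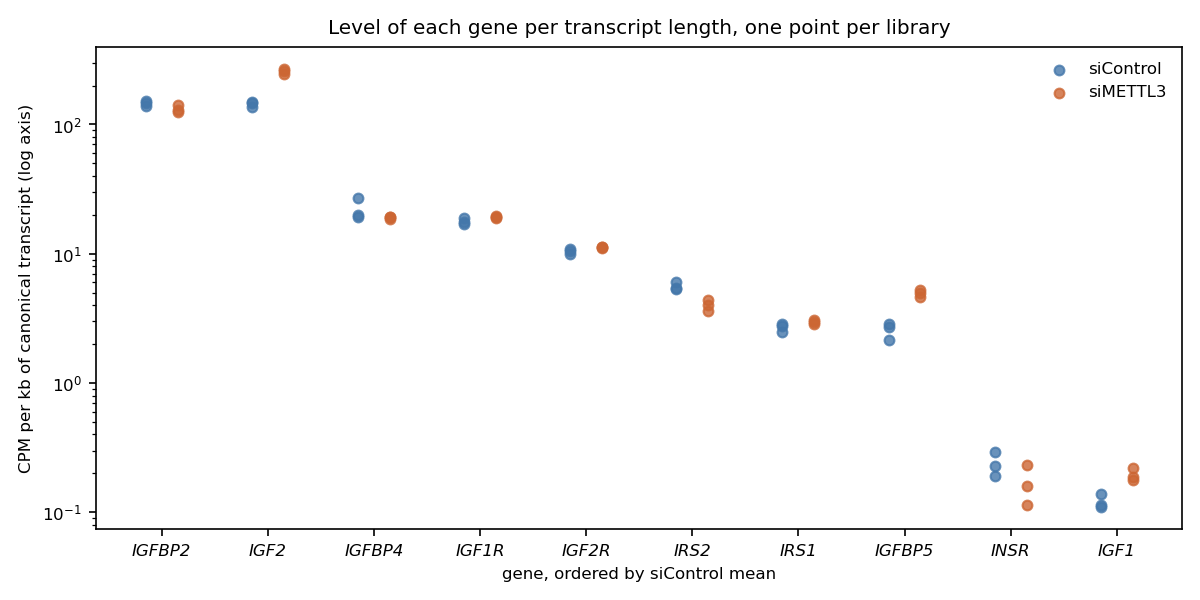
Level of each gene in CPM per kb of its canonical transcript (vertical log axis), with a point per library, siControl in blue and siMETTL3 in orange, ordered by the siControl mean. IGF2 and IGFBP2 overlap at the top in siControl and separate in siMETTL3, and INSR and IGF1 sit below 0.3.

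Of the 10 genes, 9 were matched in the RefSeq promoter table (GRCh38.p14), all but IGF2. For each gene, the 250 bases upstream of the RefSeq start nearest to the 5′ end of the deposited gene span were searched. Both strands were searched for 4 motifs, with overlapping matches counted, and other starts of a gene were not searched. The E-box bound by MYC family proteins, CACGTG, is held by 6.34% of the 35116 promoters of the same length. The GC box bound by SP1, GGGCGG, is held by 42.6% of them. A TATA box, TATAAA, is held by 10.7%, and the FOXO motif, GTAAACA, is held by 2.98%. The windows of IGFBP5 and IRS2, genes that moved in opposite directions, are shown 5′ to 3′ on the gene's strand with matches in capitals:
IGFBP5 (chr2:216695550-216695799, minus strand): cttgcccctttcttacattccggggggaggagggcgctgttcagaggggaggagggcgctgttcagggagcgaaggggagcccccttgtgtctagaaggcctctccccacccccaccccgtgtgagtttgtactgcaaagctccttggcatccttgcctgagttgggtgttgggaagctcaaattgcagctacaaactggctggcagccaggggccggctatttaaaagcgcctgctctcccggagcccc
IRS2 (chr13:109786584-109786833, minus strand): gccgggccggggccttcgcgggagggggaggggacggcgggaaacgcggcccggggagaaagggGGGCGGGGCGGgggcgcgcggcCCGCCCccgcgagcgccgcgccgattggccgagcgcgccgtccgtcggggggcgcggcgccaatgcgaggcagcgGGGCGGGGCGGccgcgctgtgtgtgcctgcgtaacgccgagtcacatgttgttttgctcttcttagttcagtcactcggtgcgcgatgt

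The IRS2 window held 5 GC boxes and 42 CpG dinucleotides, against a median of 11 CpG over all promoters. That of IGFBP5 held none of the 4 motifs and 8 CpG. At the start searched, its neighbour IGFBP2 resembled it in this respect, with 7 CpG and 1 GC box, and its other starts may differ. The E-box was found only in the window of IGF2R among the 9, with 3 matches, the TATA box only in that of IGFBP4 and the FOXO motif only in that of IGF1, with 1 match each. A missing match says only that these letters are not in this window.

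Beyond the 10 genes, 70 genes of the pathway on 8 lists were followed, of which 65 passed the filter on low counts. Of these, 12 rose and 10 fell, or 33.8% against 37.8% of all genes tested, with a median log2 fold change of 0.065. The 12 include INS-IGF2, whose counts share reads with IGF2. The number that fell was 6 without siControl replicate 2 and 16 without siControl replicate 3.

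On the list of binding protein proteases and their inhibitors, 3 of 4 tested genes rose and none fell. Among all genes tested 18.6% were called higher and 19.2% lower. HTRA1, also listed, was below the filter. No test compared this list with others. PAPPA, a metalloprotease that cleaves IGFBP4 and IGFBP5, rose from 25.5 ± 4.29 to 38.4 ± 1.23 CPM (0.60 on the log2 scale, edgeR adjusted p = 0.000558). PAPPA2, which cleaves IGFBP5, rose from 3.14 ± 0.727 to 5.16 ± 0.283 CPM (0.72 on the log2 scale, edgeR adjusted p = 0.0111), but missed the threshold when siMETTL3 replicate 2 was dropped (adjusted p = 0.0502). STC1, a secreted inhibitor of PAPPA, rose 6.83-fold from 6.79 ± 0.856 to 46.5 ± 0.903 CPM (edgeR, adjusted p = 7.74e-10). STC2, another inhibitor of PAPPA, was at 21.6 ± 1.00 and 18.02 ± 2.13 CPM and did not pass (log2 fold change -0.26, edgeR adjusted p = 0.0601), although its groups did not overlap. It passed as lower without siControl replicate 3 (adjusted p = 0.0356), without siMETTL3 replicate 3 (adjusted p = 0.0462) and in the fit on genes without span overlap (adjusted p = 0.0447). So PAPPA and its inhibitor STC1 were both higher in siMETTL3, with the larger change in STC1. The other inhibitor, STC2, was lower by sign and did not pass with all libraries.

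On the list of other ligands, binding proteins and receptors, 1 of 6 tested genes was called, against 37.8% of all genes tested. It was INS-IGF2, whose counts share reads with IGF2, as described above. IGFBPL1 and IGFBP3 are given here as examples chosen after their values were seen. IGFBPL1 was expressed at 263 ± 17.6 and 259 ± 3.42 CPM (log2 fold change -0.02, edgeR adjusted p = 0.809), whereas IGFBP3 stood at 3.31 ± 0.356 and 2.91 ± 0.430 CPM and IGFBP1 and IGFBP6 were below the filter.

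Downstream of the receptors, 4 of 16 tested adaptors and relay kinases were called, 2 in each direction, against 37.8% of all genes tested. PIK3R1, the p85α regulatory subunit of phosphoinositide 3-kinase, rose from 73.4 ± 8.02 to 119 ± 3.10 CPM (0.70 on the log2 scale, edgeR adjusted p = 9.47e-06). AKT1 rose by 0.27 on the log2 scale (adjusted p = 0.0112), but not past the threshold without siControl replicate 2 (adjusted p = 0.0504) or siMETTL3 replicate 2 (adjusted p = 0.072). SHC1, the adaptor that leads to RAS, fell to 81.9% of its control level (log2 fold change -0.29, edgeR adjusted p = 0.00107), and 12.9% of its span overlaps PYGO2. GRB14, an inhibitory adaptor of the insulin receptor, fell by 0.42 on the log2 scale (adjusted p = 0.0119). That call was lost without siControl replicate 2 (0.0581) or without siMETTL3 replicate 1 (0.0671) or 3 (0.0523).

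The list of brakes on the pathway had 8 of 14 tested genes called (57.1%, against 37.8% of all genes tested). Of the 14, 6 were called lower and 2 higher, against 19.2% lower and 18.6% higher among all genes tested. The median log2 fold change of the list was -0.23. No test compared this list with others, and it was chosen with earlier results of these data known. DDIT4, a stress-induced inhibitor of mTOR complex 1, fell to 56.9% of its control level, from 72.0 ± 5.84 to 41.0 ± 2.41 CPM (-0.81 on the log2 scale, edgeR adjusted p = 3.03e-06). INPPL1, the lipid phosphatase SHIP2, fell by 0.44 (adjusted p = 0.000139), and TRIB3, a pseudokinase that binds AKT, fell by 0.47 (adjusted p = 0.000851), both on the log2 scale. PHLPP2, a phosphatase of AKT, and PTPN1, a phosphatase of the insulin receptor, rose by 0.45 and 0.30 (adjusted p = 0.000681 and 0.00136). TSC2, a subunit of the complex that restrains mTOR complex 1, was singled out after its value was seen and fell by 0.25 on the log2 scale (edgeR, adjusted p = 0.0110). Its call was lost without siControl replicate 2 (0.0804) or siMETTL3 replicate 3 (0.0702).

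In the mTOR list, 2 of 10 genes were called, against 37.8% of all genes tested. MLST8, a subunit of both mTOR complexes, fell to 74.7% of its control level (log2 fold change -0.42, edgeR adjusted p = 0.000586). RPTOR, the scaffold of complex 1, rose by 0.38 (adjusted p = 0.0276), a call that was lost without siControl replicate 2 or any of the siMETTL3 replicates (adjusted p from 0.0536 to 0.0753) and without the filter on low counts (0.0589). MTOR, named after its value was seen, was at 128 ± 8.0 and 141 ± 1.81 CPM and did not pass (adjusted p = 0.0847).

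Of the 4 FOXO factors, transcription factors that AKT excludes from the nucleus, 1 was called, against 37.8% of all genes tested. It was FOXO6, which rose from 5.51 ± 0.856 to 9.35 ± 0.380 CPM (0.75 on the log2 scale, edgeR adjusted p = 0.00126), and the other 3 did not pass. Among the IGF2 mRNA-binding proteins, which bind IGF2 mRNA and read m6A, IGF2BP1 was at 485 ± 30.6 and 548 ± 10.1 CPM (log2 fold change 0.18, edgeR adjusted p = 0.0318). That call was lost without siControl replicate 2 or any siMETTL3 replicate (adjusted p from 0.0838 to 0.127) and with an offset for span length (0.115). IGF2BP3, also named after its value was seen, did not pass (339 ± 8.66 and 374 ± 6.44 CPM, adjusted p = 0.0502). IGF2BP2, with 10 to 20 counts per library, was lower by sign and did not pass (log2 fold change -0.58, edgeR adjusted p = 0.246). Of these 3 binding proteins 1 was called, against 37.8% of all genes tested. On the list of processing and trafficking partners, 2 of 8 were called, against 37.8% of all genes tested. PCSK5, a proprotein convertase, rose from 17.4 ± 0.910 to 41.6 ± 0.960 CPM (1.25 on the log2 scale, edgeR adjusted p = 1.07e-07). GNPTAB, which makes the mannose 6-phosphate tag that IGF2R binds, fell to 78.3% of its control level (log2 fold change -0.35, edgeR adjusted p = 0.00443).

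**Figure D5:**
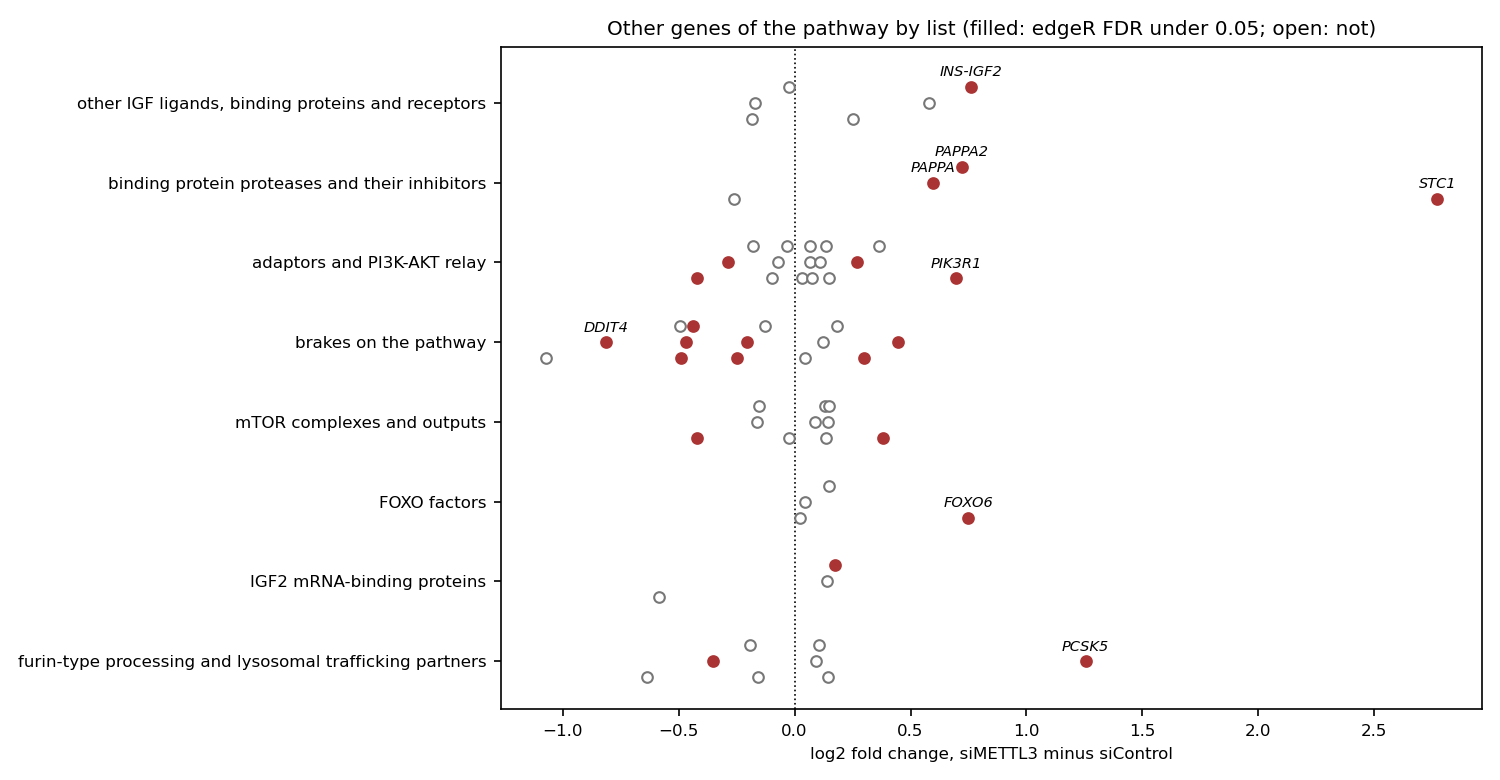
Log2 fold change (horizontal axis, siMETTL3 minus siControl) of the tested genes of 8 pathway lists (rows), with filled points for an edgeR adjusted p under 0.05. The protease and inhibitor list holds the largest rise, STC1 at 2.77, and the list of brakes holds the lowest called gene, DDIT4 at -0.81.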

How the data were processed

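RNA-seq libraries of Kelly cells (siControl, n = 3; siMETTL3, n = 3) were analysed from the authors' deposited raw read counts per gene. Per the file headers, counts were made with featureCounts 1.5.3 over whole gene spans of a protein-coding GENCODE release 33 annotation, with reads on several genes counted for each and no strand or read-pair option. The submitters' processing notes name HISAT2 2.1.0, Trimmomatic 0.36 and GRCh38. Groups and replicate numbers came from the sample titles. Genes were filtered with filterByExpr, scaled by TMM and tested with edgeR 4.0.16 (quasi-likelihood F-test, robust, R 4.3.3), with Benjamini-Hochberg adjustment over all 15311 genes tested and a threshold of 0.05. CPM used TMM-scaled library sizes. The SE is the absolute log2 fold change over the square root of F, and 95% intervals use the t distribution with edgeR's total degrees of freedom. The fit was tested on simulated data in which far fewer genes changed than were called here. That test does not show how the fit behaves when so large a share of genes changes. The 10 genes, the lists and the rule for named genes were chosen with earlier results of these data known. That rule takes METTL3, the 10 genes, genes overlapping their spans, up to 3 called genes per list and direction, STC1, STC2, and the 2 genes nearest in profile to the called gene with the largest rise and to that with the largest fall. GENCODE release 44 (GRCh38) gave transcripts; all 18965 spans compared overlapped the gene of the same symbol there. Alternatives were other scalings and filters, DESeq2 1.42.0, limma-voom (limma 3.58.1), a non-robust dispersion, a replicate block, an offset for span length, genes without span overlap, and each library left out.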

Additional observations from a re-analysis of the deposited data

How the results depend on the processing

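IGF2, IGFBP5, IRS2 and METTL3 kept their direction and their call under every alternative that was run, and no direction of the 10 genes reversed. With 1 library left out at a time, the log2 fold change went from 0.80 to 0.87 for IGF2, from 0.82 to 1.02 for IGFBP5, from -0.562 to -0.415 for IRS2 and from -0.74 to -0.69 for METTL3. In the same fits it went from 0.073 to 0.15 for IGF1R, from -0.21 to -0.12 for IGFBP2 and from -0.30 to -0.039 for IGFBP4. The number of called genes of the axis went from 3 to 6, with 1 to 3 lower, and that of called pathway genes from 15 to 29, with 6 to 16 lower. On the genes without span overlap, with the 10 genes and METTL3 kept whether they overlap or not, 3761 genes were called, 1858 higher and 1903 lower, of 9542 tested; the smaller set gives the smaller count.

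Any pairing of the libraries by replicate number was weak. Deviations from the group means correlated at 0.036 to 0.054 between libraries of the same number, although each library correlated best with its own number. With the replicate block 6166 genes were called against 5786, and 2 genes of the axis were lower, since IGFBP2 passed (log2 fold change -0.15, edgeR adjusted p = 0.0498). Both ratios kept their mean difference under the block, with a smallest possible p of 0.25. Depth limits IGF1 and INSR, with 45 counts or fewer in every library.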

Other observations

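Genes whose profile over the 6 libraries was most like that of a called gene of the axis were sought among 11755 genes (average log2 CPM 3 or more) by the root mean square difference of mean-centred log2 CPM. Nearest to IGFBP5 were PPP1R16B (difference 0.0587), which rose from 23.1 to 43.6 CPM, and PFKFB3 (0.0657), an enzyme that sets the level of an activator of glycolysis, which rose from 19.8 to 35.3 CPM. Nearest to IRS2 were RAD1 (0.0222), a subunit of a DNA damage checkpoint clamp, which fell from 62.4 to 43.6 CPM, and BVES (0.0313), which fell from 14.9 to 10.4 CPM. All 4 had an edgeR adjusted p between 3.67e-05 and 0.00283. They were picked for likeness to called genes in the same libraries, so these values are not separate support. With 2 groups of 3 libraries, a profile holds little beyond the difference between the groups, and likeness over so few libraries is a description only.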
